A study of Mus musculus with 26 samples.

Results

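Expression of 10 genes encoding secreted chemokines and cytokines was examined across the 10 RNA-seq libraries of the study. The members are *Ccl2*, *Ccl7*, *Ccl5*, *Cxcl1*, *Cxcl5*, *Cxcl10*, *Cxcl12*, *Il6*, *Lif* and *Csf1*. They were chosen by name, as signals that fibroblasts are known to secrete, and with earlier results of these data known. All 10 were found among the 52454 gene symbols of the expression table. The study asked where the de novo DNA methyltransferases DNMT3A and DNMT3B act in the genome during development, and an inhibitor of the Polycomb enzyme EZH2 was one of its treatments. Values are FPKM, reads per unit of transcript length and per unit of library size, a level that can be compared between genes of different length.

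The 6 fibroblast libraries came from mouse embryonic fibroblasts (MEFs). In 2i-MEFs, *Dnmt3a* or *Dnmt3b* had been disrupted by CRISPR in female ES cells of a cross of 129X1/SvJ and MSM/Ms mice grown with inhibitors of MEK and Gsk3 plus LIF. These GFP-labelled cells were injected into ICR blastocysts, fibroblasts were grown from chimeric embryos at E14.5 and used at passage 1, and host cells were removed by G418 selection and cell sorting. The other MEFs were male C57BL6 cells, likewise at E14.5 and passage 1, labelled WT or *Dnmt3a* KO, each kept with the solvent DMSO or with 10 µM of the EZH2 inhibitor GSK126 for 2 days. Heart and liver were taken from male C57BL6 embryos at E14.5 labelled WT or *Dnmt3a* KO, and both organs of a label carry 1 number (4 for WT, 25 for *Dnmt3a* KO), so that these 4 libraries represent 2 embryos if the number marks the embryo. By the paper's methods, the WT and *Dnmt3a* KO embryos for MEFs and organs came from crosses of mice heterozygous for a *Dnmt3a* knockout, not from CRISPR. Each condition had 1 library, so that a difference between conditions has no replicate check, and strain, sex and derivation cannot be told apart between 2i-MEFs and MEFs.

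Depth, recovered from the steps in low FPKM values, ranged from 9171381 to 26219094 reads per library. *Dnmt3a* reached 4.21 FPKM in *Dnmt3a* KO 2i-MEFs and 23.9 FPKM in *Dnmt3b* KO 2i-MEFs. With DMSO it reached 85.7 FPKM in MEFs labelled *Dnmt3a* KO against 26.1 FPKM in WT, and in heart 125 against 55.0 FPKM, which goes against these labels as far as a value over the whole gene can show it, so these libraries are named by their labels. In liver, WT had 53.5 FPKM and the *Dnmt3a* KO label 12.7 FPKM. *Dnmt3b* reached 0.817 FPKM in *Dnmt3b* KO 2i-MEFs and 1.81 FPKM in *Dnmt3a* KO 2i-MEFs. All 12 fibroblast markers exceeded 1 FPKM in each of the 6 fibroblast libraries, where they summed to between 6649 and 18702 FPKM, against 293 to 1521 FPKM in heart and liver. Markers of other cell types summed in the fibroblast libraries to at most 6.32 FPKM (endothelial), 48.9 FPKM (megakaryocyte), 4.26 FPKM (erythroid), 7.14 FPKM (hepatocyte), 15.7 FPKM (cardiomyocyte), 37.8 FPKM (epithelial) and 1.48 FPKM (pluripotency). Macrophage markers were the exception. In the 4 MEF libraries all 14 of them exceeded 1 FPKM and they summed to between 1534 and 2186 FPKM. In 2i-MEFs the same markers summed to 32.7 FPKM in the *Dnmt3a* KO library, with *Fcgr1* and *Cx3cr1* listed at 0, and to 17.9 FPKM in the *Dnmt3b* KO library, with *Adgre1* and *Itgam* listed at 0, these 4 markers being named after their values were seen. In such bulk samples, fewer cells of a type and less RNA per cell cannot be told apart.

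Chemokines are small secreted proteins that attract leukocytes along a concentration gradient by binding to receptors of the G protein-coupled class. They are named after the spacing of their first cysteines as CC or CXC chemokines, and genes of each class lie side by side in clusters. Many inflammatory chemokines and IL-6 are induced through NF-kB, and CXCL10 and CCL5 also by interferons, whereas CXCL12 is made constitutively by stromal cells and retains blood progenitors in their niche. IL-6 and LIF signal through the shared receptor chain gp130, encoded by *Il6st*, and CSF1 is the growth factor on which macrophages depend.

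The 300 bases around the start of the gene, 250 before it and 50 from it, were read from a set of RefSeq (GRCm38.p6) windows. That set held 6 of the 10 members. *Ccl2*, *Ccl7*, *Ccl5* and *Cxcl5* were not matched in it, which does not show that RefSeq lacks a start for them. The sequences shown are those of an NF-kB-regulated chemokine, an interferon-induced chemokine, an NF-kB-regulated cytokine and the member with the highest level. They run 5′ to 3′ on the strand of the gene, at chr5:90890995-90891294 (plus strand) for *Cxcl1*, chr5:92348840-92349139 (minus strand) for *Cxcl10*, chr5:30012864-30013163 (plus strand) for *Il6* and chr6:117168285-117168584 (plus strand) for *Cxcl12*, and capitals mark matches to the NF-kB consensus on either strand.
Cxcl1: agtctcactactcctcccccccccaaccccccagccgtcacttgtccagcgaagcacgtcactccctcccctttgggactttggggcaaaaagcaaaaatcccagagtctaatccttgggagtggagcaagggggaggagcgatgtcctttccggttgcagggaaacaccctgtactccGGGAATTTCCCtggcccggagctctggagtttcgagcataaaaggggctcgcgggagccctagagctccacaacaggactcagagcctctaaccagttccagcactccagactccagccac
Cxcl10: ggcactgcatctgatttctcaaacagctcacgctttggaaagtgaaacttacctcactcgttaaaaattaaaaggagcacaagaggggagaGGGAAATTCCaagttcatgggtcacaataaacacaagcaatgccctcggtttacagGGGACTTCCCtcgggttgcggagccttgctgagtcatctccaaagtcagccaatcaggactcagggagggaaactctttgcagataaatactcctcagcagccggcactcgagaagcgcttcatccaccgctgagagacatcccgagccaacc
Il6: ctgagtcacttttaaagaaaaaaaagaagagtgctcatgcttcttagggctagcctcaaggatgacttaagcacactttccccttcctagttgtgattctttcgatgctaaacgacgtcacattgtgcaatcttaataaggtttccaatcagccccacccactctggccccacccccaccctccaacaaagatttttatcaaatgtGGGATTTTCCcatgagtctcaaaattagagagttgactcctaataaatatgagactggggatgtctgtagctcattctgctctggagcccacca
Cxcl12: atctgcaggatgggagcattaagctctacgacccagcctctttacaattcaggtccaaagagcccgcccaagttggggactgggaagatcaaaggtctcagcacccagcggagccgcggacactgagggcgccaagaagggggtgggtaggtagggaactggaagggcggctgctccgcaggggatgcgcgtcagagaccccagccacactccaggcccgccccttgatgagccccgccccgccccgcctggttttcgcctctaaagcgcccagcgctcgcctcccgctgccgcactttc

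The NF-kB consensus was found in 4 of the 6 windows, those of *Cxcl1*, *Cxcl10*, *Il6* and *Csf1*, and in 4.51% of 32851 RefSeq promoter windows of the same length. In *Cxcl1* there were 2 overlapping matches, the first of which began 71 bases before the start, in *Cxcl10* they began 159 and 103 bases before it, in *Il6* 44 bases and in *Csf1* 154 bases. The interferon response motif GAAANNGAA was found on either strand in 1 window, that of *Cxcl10*, 213 bases before the start, and in 8.56% of all windows. TATAAA on either strand was found in 0 of the 6 windows and in 13.6% of all windows. The *Cxcl12* window held 20 CpG dinucleotides and that of *Il6* held 3, beside a median of 7 over all windows. *Cxcl1* and *Cxcl10* held 10 each, *Csf1* held 16 and *Lif* held 7. These matches describe the letters in the windows, and binding was not measured.

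**Figure D1:**
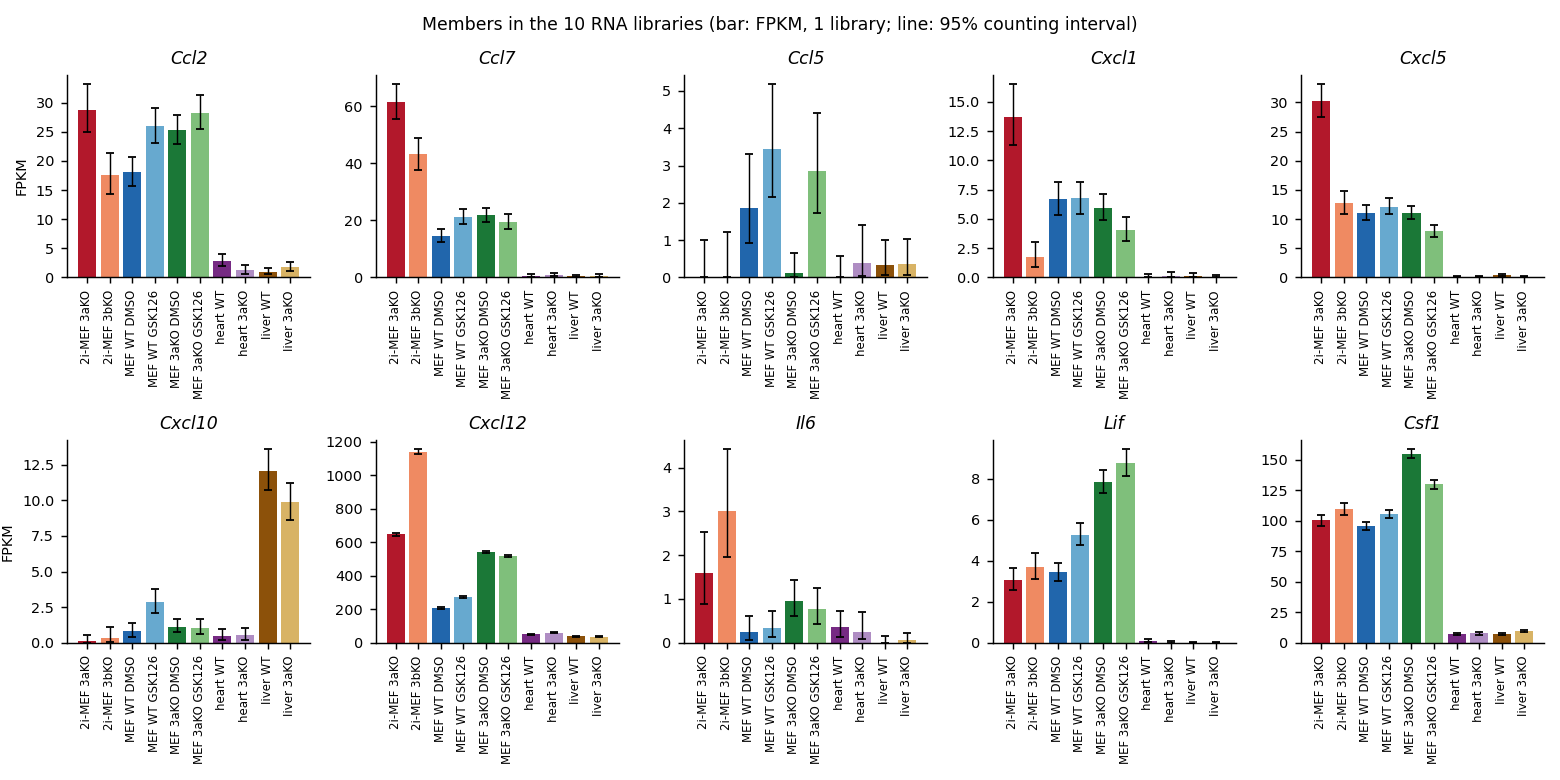
FPKM of each member (vertical axis, a scale of its own per gene) in the 10 libraries, with 3aKO and 3bKO for libraries labelled *Dnmt3a* KO and *Dnmt3b* KO; a bar is 1 library and the line its 95% Poisson counting interval. *Cxcl12* spans 207 to 1141 FPKM in the fibroblast libraries and 36.2 to 60.3 FPKM in the tissues, whereas *Cxcl10* is highest in liver, at 12.1 and 9.86 FPKM.

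The plot of members by library shows 7 of the 10 members higher in each of the 6 fibroblast libraries than in each of the 4 heart and liver libraries. These were *Ccl2*, *Ccl7*, *Cxcl1*, *Cxcl5*, *Cxcl12*, *Lif* and *Csf1*. Among all gene symbols, 6.05% had this order and 5.33% the opposite one, and among genes averaging 1 FPKM or more over the libraries compared, called expressed genes from here on, 19.8% and 17% did. The smallest gap, from the lowest fibroblast library to the highest tissue library, was 3.43-fold for *Cxcl12*, and it was 6.20-fold for *Ccl2* and 10.3-fold for *Csf1*. *Ccl5*, *Cxcl10* and *Il6* overlapped between fibroblasts and tissues. The members were chosen as signals of fibroblasts with earlier results of these data known, so that their count gives no support to such an order. Cultured cells and whole tissues were compared here, so that culture and cell type cannot be told apart.

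Among the monocyte attractants, *Ccl2* (ENSMUSG00000035385.5, mm10 chr11:82035571-82037453, plus strand) encodes the main ligand of CCR2. It reached 28.7 and 17.6 FPKM in *Dnmt3a* KO and *Dnmt3b* KO 2i-MEFs, 18.03 and 25.97 FPKM in WT MEFs with DMSO and GSK126, and 25.4 and 28.2 FPKM in MEFs labelled *Dnmt3a* KO with DMSO and GSK126. The 6 fibroblast libraries thus lay within 1.63-fold of each other, with no separation of 2i-MEFs from MEFs. In tissues the level was 2.84 FPKM in WT heart, 1.27 FPKM in the heart labelled *Dnmt3a* KO, 0.997 FPKM in WT liver and 1.78 FPKM in the liver labelled *Dnmt3a* KO.

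*Ccl7* (ENSMUSG00000035373.2, chr11:82045712-82047525, plus strand) is the next gene of the same cluster and encodes another CCR2 ligand. It reached 61.4 and 43.2 FPKM in *Dnmt3a* KO and *Dnmt3b* KO 2i-MEFs, 14.6 and 21.2 FPKM in WT MEFs with DMSO and GSK126, and 21.8 and 19.5 FPKM in MEFs labelled *Dnmt3a* KO. Both 2i-MEF libraries were above all 4 MEF libraries. In heart and liver it stayed between 0.381 and 0.864 FPKM. Within a library, the level of *Ccl7* was 2.14 and 2.45 times that of *Ccl2* in 2i-MEFs, and between 0.692 and 0.862 times that of *Ccl2* in the 4 MEF libraries.

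*Ccl5* (ENSMUSG00000035042.2, chr11:83525778-83530518, minus strand) encodes an attractant of T cells and monocytes that T cells, macrophages and virus-infected cells secrete. It was listed at 0 in both 2i-MEF libraries, where 3 reads would have given 0.827 and 0.985 FPKM. In WT MEFs it reached 1.85 FPKM (11 reads) with DMSO and 3.43 FPKM (22 reads) with GSK126, and in MEFs labelled *Dnmt3a* KO 0.118 FPKM (1 read) and 2.86 FPKM (20 reads). The library labelled *Dnmt3a* KO with DMSO therefore stood apart from the other 3 MEF libraries. In heart and liver *Ccl5* rested on at most 3 reads.

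Of the neutrophil attractants, which bind CXCR2, *Cxcl1* (ENSMUSG00000029380.11, chr5:90891241-90893115, plus strand) reached 13.7 FPKM in *Dnmt3a* KO 2i-MEFs and 1.78 FPKM in *Dnmt3b* KO 2i-MEFs. The 4 MEF libraries lay between these, at 6.68 and 6.75 FPKM in WT and 5.89 and 4.08 FPKM under the *Dnmt3a* KO label, with DMSO and GSK126. In tissues it did not exceed 0.101 FPKM. *Cxcl5* (ENSMUSG00000029371.7, chr5:90759360-90761624, plus strand) reached 30.2 and 12.7 FPKM in the *Dnmt3a* KO and *Dnmt3b* KO 2i-MEFs, 11.05 and 12.1 FPKM in WT MEFs, and 11.1 and 7.93 FPKM in MEFs labelled *Dnmt3a* KO. Apart from the *Dnmt3a* KO 2i-MEFs, the fibroblast libraries were close to each other, and heart and liver did not exceed 0.388 FPKM.

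*Cxcl10* (ENSMUSG00000034855.13, chr5:92346638-92348889, minus strand), a ligand of CXCR3 on activated T cells, was low in fibroblasts. It reached 0.102 FPKM (1 read) and 0.366 FPKM (3 reads) in *Dnmt3a* KO and *Dnmt3b* KO 2i-MEFs, 0.809 FPKM (13 reads) and 2.84 FPKM (49 reads) in WT MEFs with DMSO and GSK126, and 1.14 FPKM (26 reads) and 1.06 FPKM (20 reads) in MEFs labelled *Dnmt3a* KO. In heart it was at 0.472 and 0.508 FPKM, and in liver at 12.1 and 9.86 FPKM for WT and the *Dnmt3a* KO label. It was the only member with its highest levels in a tissue.

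*Cxcl12* (ENSMUSG00000061353.11, chr6:117168535-117181367, plus strand), which binds CXCR4 and the scavenging receptor ACKR3, had the highest level of the members in each of the 10 libraries. It reached 648 and 1141 FPKM in *Dnmt3a* KO and *Dnmt3b* KO 2i-MEFs, 207 and 274 FPKM in WT MEFs with DMSO and GSK126, and 539.8 and 517 FPKM in MEFs labelled *Dnmt3a* KO. In *Dnmt3b* KO 2i-MEFs it ranked 94 and in WT MEFs with DMSO 542 among all genes by FPKM. It made up between 57.6% and 85.6% of the summed FPKM of the 10 members in the fibroblast libraries. The order ran from WT MEFs over MEFs labelled *Dnmt3a* KO to 2i-MEFs, and heart (49.4 and 60.3 FPKM) and liver (37.8 and 36.2 FPKM) lay below all of them.

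Of the gp130 cytokines, *Il6* (ENSMUSG00000025746.11, chr5:30013114-30019981, plus strand) reached 1.59 FPKM (16 reads) and 3.00 FPKM (26 reads) in *Dnmt3a* KO and *Dnmt3b* KO 2i-MEFs, 0.247 FPKM (4 reads) and 0.344 FPKM (6 reads) in WT MEFs with DMSO and GSK126, and 0.9495 FPKM (23 reads) and 0.769 FPKM (15 reads) in MEFs labelled *Dnmt3a* KO. Both 2i-MEF libraries were above the MEFs, and WT MEFs were level with WT heart, at 0.352 FPKM. *Lif* (ENSMUSG00000034394.14, chr11:4257557-4272514, plus strand), which keeps mouse ES cells undifferentiated in culture, reached 3.05 and 3.70 FPKM in 2i-MEFs, 3.43 and 5.28 FPKM in WT MEFs, and 7.85 and 8.76 FPKM in MEFs labelled *Dnmt3a* KO. It was listed at 0 in both liver libraries and in the heart labelled *Dnmt3a* KO, and WT heart held 5 reads.

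*Csf1* (ENSMUSG00000014599.10, chr3:107741048-107760469, minus strand) reached 100.2 and 109.8 FPKM in 2i-MEFs, 95.6 and 106 FPKM in WT MEFs, and 155 and 129.8 FPKM in MEFs labelled *Dnmt3a* KO, and between 6.92 and 9.26 FPKM in heart and liver. The fibroblast libraries differed by at most 1.62-fold. *Csf1r*, the receptor for CSF1 and a macrophage gene, reached 50.5 and 45.8 FPKM in WT MEFs and 26.1 and 28.4 FPKM in MEFs labelled *Dnmt3a* KO, but 0.748 and 0.208 FPKM in 2i-MEFs. Ligand and receptor were thus both high in MEFs, and the ligand alone in 2i-MEFs.

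GSK126 was compared with DMSO within each genotype label. In WT MEFs 1 of the 10 members, *Cxcl10*, was at least 2-fold higher in FPKM + 1 and 0 were 2-fold lower. Over all gene symbols 0.559% were 2-fold higher and 0.408% lower, and over expressed genes 1.67% and 1.33%. Under the *Dnmt3a* KO label 1 member, *Ccl5*, was 2-fold higher and 0 were lower, beside 0.522% higher and 0.846% lower of all symbols and 1.69% and 2.84% of the expressed genes. A 2-fold difference in the same direction under both labels was found for 0 members, and for 0.114% (higher) and 0.0782% (lower) of all symbols and 0.432% and 0.296% of expressed genes.

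**Figure D2:**
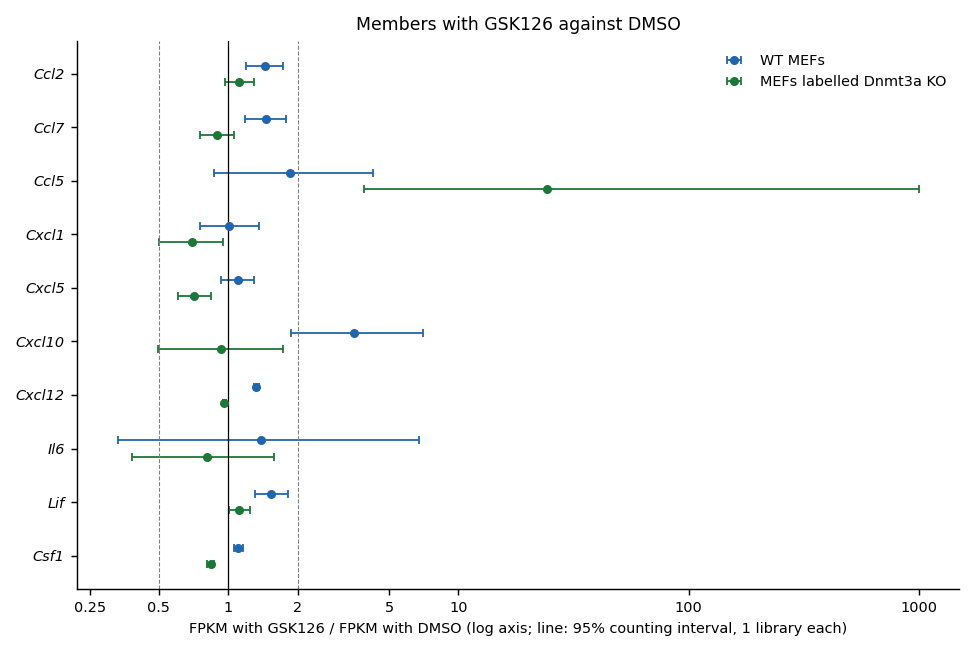
FPKM with GSK126 divided by FPKM with DMSO (horizontal log axis) for each member in WT MEFs (blue) and MEFs labelled *Dnmt3a* KO (green); points are ratios of 2 single libraries, lines 95% counting intervals, and dashed lines mark 2-fold. *Cxcl10* in WT (3.51-fold) and *Ccl5* under the *Dnmt3a* KO label (24.2-fold, from 1 read to 20 reads) stand out, and the other ratios lie between 0.693 and 1.86.

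With GSK126, *Cxcl10* in WT MEFs was 3.51-fold higher (95% exact binomial counting interval 1.87 to 7.03), from 13 to 49 reads, as the plot of GSK126 ratios shows. Under the *Dnmt3a* KO label its ratio was 0.932 (0.493 to 1.74). *Ccl5* was 24.2-fold higher under the *Dnmt3a* KO label, but this rests on 1 read with DMSO and its interval runs from 3.87 to 1004. In WT its ratio was 1.86 (0.863 to 4.24), so that the 2 levels with GSK126, 3.43 and 2.86 FPKM, were closer than the 2 levels with DMSO. These intervals cover counting error only and do not include the spread between cultures. The reads carry no molecular identifiers, so that copies made by PCR count as reads and the intervals may be too narrow.

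The members leaned differently under the 2 labels. In WT MEFs all 10 log2 ratios of FPKM + 1 were above 0, with a median of 0.45, beside a median of 0.0017 over expressed genes. The ratios of *Ccl2*, *Ccl7*, *Cxcl12*, *Lif* and *Csf1* had counting intervals above 1, with 1.44-fold for *Ccl2*, 1.46-fold for *Ccl7*, 1.32-fold for *Cxcl12*, 1.54-fold for *Lif* and 1.10-fold for *Csf1*. *Cxcl1* and *Cxcl5* were nearly level, at ratios of 1.01 and 1.10. Under the *Dnmt3a* KO label 3 of the 10 log2 ratios were above 0, those of *Ccl2*, *Ccl5* and *Lif*, and the median was -0.10 beside -0.04 over expressed genes. There the neutrophil attractants *Cxcl1* (ratio 0.693, interval 0.501 to 0.945) and *Cxcl5* (0.713, 0.604 to 0.842) and the growth factor *Csf1* (0.839, 0.809 to 0.869) were lower with GSK126, as was *Cxcl12* slightly (0.958, 0.944 to 0.972). *Lif* was higher under this label too (1.12, 1.01 to 1.24). With 1 library in each of the 4 conditions, the difference between the labels could not be tested.

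limma, fitted over the 4 MEF libraries with the genotype label as a block and 1 residual degree of freedom, tested 9 of the 10 members, all but *Il6*, and called 0 at an adjusted p under 0.05. It called 1 of 13192 genes higher and 1 lower (0.00758% each). The member nearest to a call was *Ccl5*, with a log2 difference of 1.21 (SE 0.36, adjusted p = 0.549). It was the 1 member with an unadjusted p under 0.05. For *Cxcl10* the log2 difference was 0.52 (SE 0.37, adjusted p = 0.7497 in limma). With DMSO, *Ccl5* and *Cxcl10* averaged 0.983 and 0.973 FPKM. Both passed the filter of 1 FPKM only through the libraries with GSK126, where they are high, so that these p-values give no support to a difference.

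Other genes of these pathways were counted in the same way. Of 28 other chemokine ligands, 1 was 2-fold higher and 1 lower in WT and 2 were higher and 0 lower under the *Dnmt3a* KO label, with 0 in common. Among 20 other cytokines and growth factors, 1 was 2-fold higher and 1 lower in WT, and 0 were higher and 5 lower under the *Dnmt3a* KO label, beside 2.84% of expressed genes lower there. Named after their values were seen, these 5 were *Il15*, *Il33*, *Ctf1*, *Cntf* and *Clcf1*, and the log2 ratios of the 4 other than *Il15* ran from -1.15 to -1.01 under that label and from -0.20 to 0.38 in WT. *Il15*, a growth factor for NK and memory T cells, was 2-fold lower under both labels, from 8.41 to 3.31 FPKM in WT and from 13.4 to 3.69 FPKM under the *Dnmt3a* KO label (limma log2 difference -1.37, SE 0.21, adjusted p = 0.284). Of 25 receptors, 1 was higher in WT and 0 differed under the *Dnmt3a* KO label, and of 20 NF-kB factors and targets 1 was lower in WT and 0 differed under the *Dnmt3a* KO label. In the 11 genes of the response to IL-6 family cytokines 0 differed 2-fold under either label. The 20 interferon response genes had median log2 ratios of 0.35 in WT and 0.41 under the *Dnmt3a* KO label, and 13 were above 0 and 5 below 0 under both. At least 2-fold higher were 2 of them under each label, with 0 in common, and limma called 0 of the 17 tested. Macrophage markers had median log2 ratios of 0.01 in WT and 0.10 under the *Dnmt3a* KO label, and their summed level was 2121 and 2186 FPKM in WT and 1664 and 1534 FPKM under the *Dnmt3a* KO label, with DMSO and GSK126. Fibroblast markers summed to 12755 FPKM with DMSO and 9598 FPKM with GSK126 in WT, and to 9850 and 6649 FPKM under the *Dnmt3a* KO label. Epithelial markers summed to 6.88 and 9.10 FPKM in WT and 17.7 and 37.8 FPKM under the *Dnmt3a* KO label, and cardiomyocyte markers to 6.69 and 13.5 FPKM and to 12.5 and 15.7 FPKM. Their part in the differences of the members was not tested. *Ezh2*, which encodes the target of GSK126, reached 18.8 FPKM with DMSO and 11.3 FPKM with GSK126 in WT, and 17.3 and 18.7 FPKM under the *Dnmt3a* KO label.

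The 2i-MEFs, taken as the 2 KO libraries, were then compared with the 2 MEF libraries with DMSO. At least 2-fold higher in 2i-MEFs were 3 of the 10 members, *Ccl7*, *Cxcl12* and *Il6*, and 0 were 2-fold lower. Over all gene symbols 1.62% were 2-fold higher and 2.06% lower, and over expressed genes 5.92% and 7.48%. Both 2i-MEF libraries were above both MEF libraries for 4 members, *Ccl7*, *Cxcl5*, *Cxcl12* and *Il6*, and below both for *Ccl5* and *Cxcl10*, and the same held against all 4 MEF libraries. This order was found for 10.1% (above) and 10.8% (below) of all symbols, and for 30.8% and 26.5% of the expressed genes. *Ccl2*, *Cxcl1*, *Lif* and *Csf1* overlapped. For *Cxcl5* the nearest libraries had overlapping counting intervals, 10.8 to 14.8 FPKM in *Dnmt3b* KO 2i-MEFs and 10.8 to 13.5 FPKM in WT MEFs with GSK126. For *Il6* they were 0.889 to 2.53 FPKM in *Dnmt3a* KO 2i-MEFs and 0.605 to 1.43 FPKM in MEFs labelled *Dnmt3a* KO with DMSO. Those of *Ccl5* and *Cxcl10* overlapped too. Of the 12 fibroblast markers, 3 were also at least 2-fold higher in 2i-MEFs, *Pdgfrb* (log2 difference 1.62, adjusted p = 0.0593 in limma), *Col3a1* (1.27, adjusted p = 0.0615) and *Lum* (1.20, adjusted p = 0.121), and 0 lower, with a median of 0.39. Their part in the differences of the members was not tested.

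**Figure D3:**
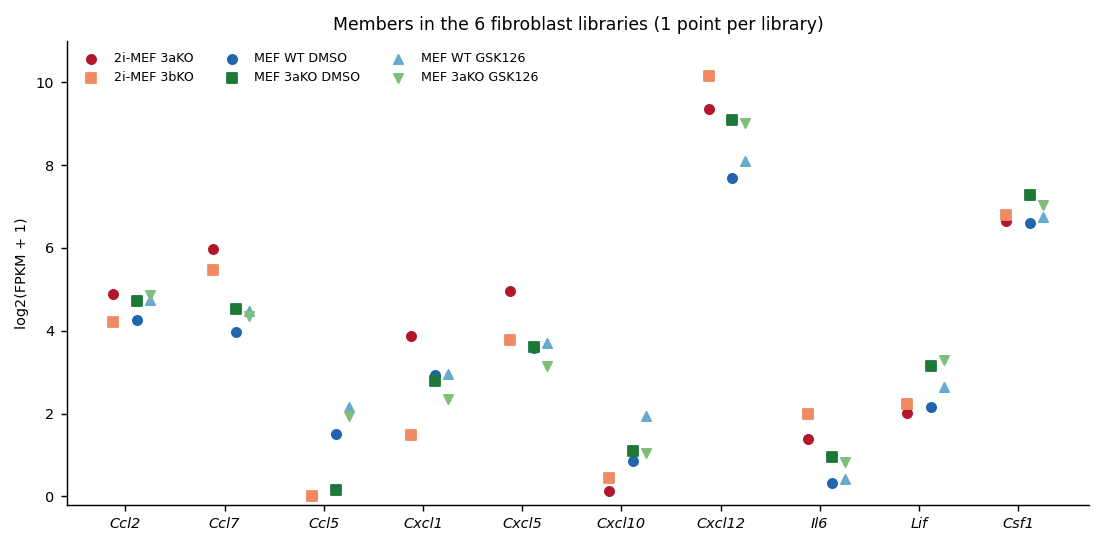
log2(FPKM + 1) of the members in the 6 fibroblast libraries, 1 point per library, with 2i-MEFs on the left of each gene and MEFs on the right (3aKO and 3bKO, labelled *Dnmt3a* KO and *Dnmt3b* KO). Both 2i-MEF points lie above all MEF points for *Ccl7*, *Cxcl5*, *Cxcl12* and *Il6* and below them for *Ccl5* and *Cxcl10*. The nearest points have overlapping counting intervals for *Cxcl5*, *Il6*, *Ccl5* and *Cxcl10*.

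Of the members, *Ccl7* stood furthest from the MEFs relative to its spread, as the plot of the 6 fibroblast libraries shows. Its mean was 52.3 FPKM in 2i-MEFs and 18.2 FPKM in MEFs with DMSO, a log2 difference of 1.48 (SE 0.28, adjusted p = 0.0668 in limma with 2 residual degrees of freedom). It remained at least 2-fold higher when any of the 4 libraries was left out, with log2 differences from 1.20 to 1.76. Its neighbour *Ccl2* had means of 23.2 and 21.7 FPKM, a log2 difference of 0.07 (SE 0.30, adjusted p = 0.909 in limma). *Cxcl12* had means of 895 and 373 FPKM, a log2 difference of 1.36 (SE 0.53, adjusted p = 0.220 in limma). It was under 2-fold without *Dnmt3b* KO 2i-MEFs (log2 difference 0.95) and without WT MEFs (0.67), the MEFs labelled *Dnmt3a* KO having 539.8 FPKM and the *Dnmt3a* KO 2i-MEFs 648 FPKM. *Il6* had means of 2.30 and 0.598 FPKM, a log2 difference of 1.05 (SE 0.41, adjusted p = 0.219 in limma). It passed the filter of 1 FPKM only through the 2i-MEFs, where it is high, so that this p-value gives no support to the difference, and it was likewise under 2-fold without *Dnmt3b* KO 2i-MEFs (0.73) and without WT MEFs (0.73).

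limma called 0 of the 8 members it tested, leaving out *Ccl5* and *Cxcl10* with means under 1 FPKM, while it called 1.48% of 13335 genes higher and 2.32% lower in 2i-MEFs. *Ccl7* was the 1 member with an unadjusted p under 0.05. When all 4 MEF libraries were used, treating DMSO and GSK126 alike, limma called 1 of 10 members, *Ccl7* (log2 difference 1.39, SE 0.21, adjusted p = 0.00729). MEFs of 1 label with and without GSK126 are not known to be separate cultures of separate embryos, so that this p-value may be too small. Because the groups hold libraries of different genotypes and 1 library each, the p-values measure the spread between these libraries.

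The low members *Ccl5* and *Cxcl10* went the other way, with 0 reads of the former and at most 3 reads of the latter in 2i-MEFs. For *Cxcl10* the means were 0.234 and 0.973 FPKM. With a smaller pseudocount of 0.1 FPKM the log2 difference of *Cxcl10* was -1.79 in place of -0.68. For *Ccl5* the mean in MEFs with DMSO, 0.983 FPKM, was close to what 3 reads would give in 2i-MEFs, so that a 2-fold difference was not detectable at this depth. Without WT MEFs the log2 difference of *Ccl5* in FPKM + 1 was -0.16, since the other MEF library with DMSO held 1 read.

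**Figure D4:**
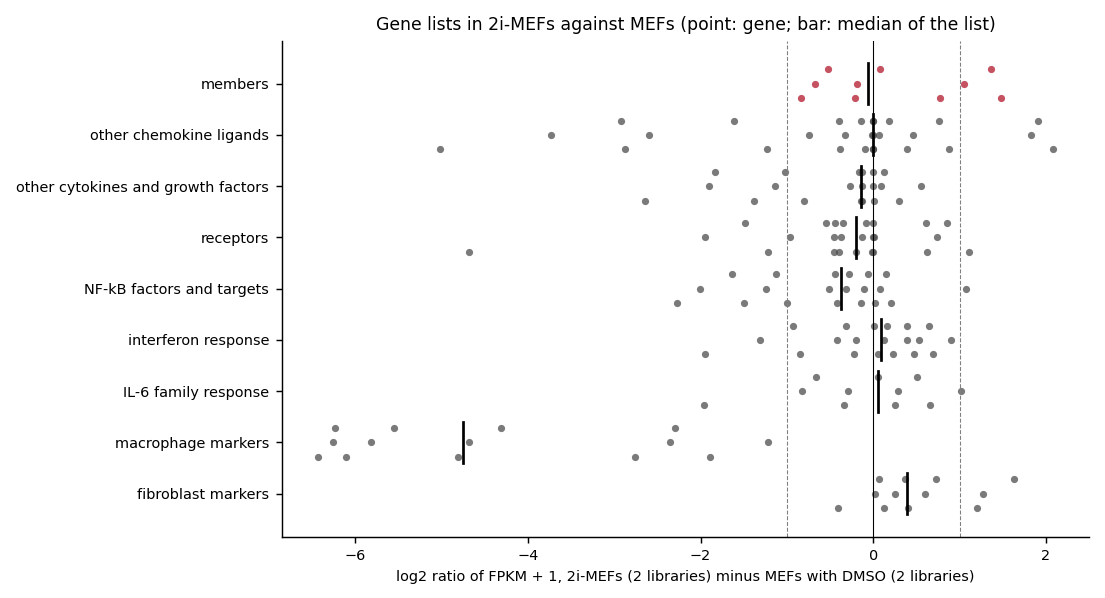
log2 ratio of FPKM + 1 in 2i-MEFs (2 libraries) against MEFs with DMSO (2 libraries) on the horizontal axis, 1 point per gene, grouped by list; vertical bars are list medians and dashed lines mark 2-fold. All 14 macrophage markers lie below -1, with a median of -4.75, whereas the members have a median of -0.06.

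The plot of gene lists shows where other ligands and receptors fell in this comparison. Of 28 other chemokine ligands, 3 were at least 2-fold higher in 2i-MEFs, *Ppbp* (log2 difference 2.08), *Ccl8* (1.90) and *Cxcl3* (1.83), and 7 were lower. *Cxcl3*, encoding a CXCR2 ligand like CXCL1 and CXCL5, was at 3.03 and 3.48 FPKM in 2i-MEFs and at 0.205 and 0.191 FPKM in MEFs with DMSO. Its adjusted p of 0.0483 in limma gives no support to the difference, since the gene passed the filter of 1 FPKM only through the group where it is high. The largest falls were *Pf4*, a chemokine of platelets and macrophages (log2 difference -5.01, adjusted p = 0.00392 in limma), *Ccl9* (-3.73, adjusted p = 0.00831) and *Ccl4* (-2.92, adjusted p = 0.0184), and limma called 5 of 13 lower and 1 higher. Of the ligands called lower, all but *Ccl9* lay under 1 FPKM in each 2i-MEF library. These passed the filter of 1 FPKM only through the MEFs, where they are high. Their p-values in limma therefore give no support to their falls. The 14 macrophage markers were all at least 2-fold lower in 2i-MEFs and 11 of the 13 tested were called by limma. Of the 14, 7 reached 1 FPKM in *Dnmt3a* KO 2i-MEFs and 3 in *Dnmt3b* KO 2i-MEFs. For a marker averaging under 1 FPKM in 2i-MEFs, the p-value in limma gives no support to its fall. *Tyrobp* fell by 6.42, *C1qa* by 6.25 and *C1qc* by 6.24 on the log2 scale. Whether the low levels of *Ccl5* and *Cxcl10* go with this difference was not tested.

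Among 20 other cytokines and growth factors 0 were 2-fold higher and 6 lower in 2i-MEFs, among them *Kitl*, the ligand of KIT (log2 difference -2.65, adjusted p = 0.0111 in limma), and *Il15* (-1.83, adjusted p = 0.153). Of 20 NF-kB factors and targets 7 were 2-fold lower and 1 higher. Lower were *Ptgs2* (-2.27, adjusted p = 0.105 in limma), encoding the inducible cyclooxygenase, the adhesion molecule gene *Icam1* (-2.001, adjusted p = 0.151) and *Nfkbia* (-1.64, adjusted p = 0.0493), encoding the inhibitor of NF-kB. *Bcl3* was higher (1.07, adjusted p = 0.0818 in limma). Of the 20 interferon response genes 0 were 2-fold higher and 2 lower, *Ifit3* (-1.95, adjusted p = 0.0800 in limma) and *Oasl2* (-1.31, adjusted p = 0.2502). In the response to IL-6 family cytokines, *Socs3*, the feedback inhibitor of gp130 signalling, was higher (1.01, adjusted p = 0.230 in limma) and the transcription factor gene *Junb* lower (-1.96, adjusted p = 0.0279), with 9 of 11 genes under 2-fold.

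The receptors of the members differed widely in level. *Il6st*, encoding gp130, reached 417 and 302 FPKM in 2i-MEFs and between 192 and 258 FPKM in MEFs, and *Lifr* 8.28 and 4.92 FPKM in 2i-MEFs and between 2.32 and 3.22 FPKM in MEFs. *Il6ra*, the IL-6 binding chain, lay between 1.19 and 2.68 FPKM in the 6 fibroblast libraries. *Ccr2*, *Cxcr2* and *Cxcr3*, which bind the CCL2, CXCL1 and CXCL10 groups, did not exceed 0.363 FPKM there. *Cxcr4*, the signalling receptor of CXCL12, reached 0.261 and 0.156 FPKM in 2i-MEFs against 3.25 and 4.12 FPKM in MEFs with DMSO (log2 difference -1.95, adjusted p = 0.0446 in limma). *Ackr3* reached 9.30 and 3.73 FPKM in 2i-MEFs and 12.4 and 27.3 FPKM in MEFs with DMSO (-1.48, adjusted p = 0.195), whereas *Ackr4*, a scavenger of other CC chemokines, was higher in 2i-MEFs (1.10, adjusted p = 0.382). *Csf1r* fell by 4.68 on the log2 scale (adjusted p = 0.0116 in limma). Over the 25 receptors, 1 was 2-fold higher and 4 lower, and limma called 0 higher and 2 lower of 14 tested. The 2 called lower were *Cxcr4* and *Csf1r*. Both lay under 1 FPKM in each 2i-MEF library and passed the filter of 1 FPKM only through the MEFs, where they are high. Their p-values in limma therefore give no support to these differences.

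Between the 2 lines of 2i-MEFs, the *Dnmt3a* KO library had 2 members at least 2-fold higher than the *Dnmt3b* KO library, *Cxcl1* and *Cxcl5*, and 0 lower. Over all gene symbols 1.43% were higher and 0.906% lower, and over expressed genes 4.86% and 3.06%. *Cxcl1* was 7.68-fold higher (95% counting interval 4.35 to 15.7), from 12 reads in the *Dnmt3b* KO to 113 reads in the *Dnmt3a* KO library, and *Cxcl5* 2.38-fold (1.98 to 2.87). *Ccl2* was 1.63-fold (1.28 to 2.11) and *Ccl7* 1.42-fold higher (1.21 to 1.68). In the other direction *Cxcl12* had a ratio of 0.568 (0.559 to 0.579) and *Il6* of 0.531 (0.259 to 0.9997), and *Lif* and *Csf1* ratios of 0.826 (0.642 to 1.06) and 0.912 (0.857 to 0.972). *Cxcl10* was at 1 read against 3 reads (ratio 0.2797, 0.00533 to 3.48) and *Ccl5* at 0 in both, so that the chemokines did not share a direction. Each genotype had 1 library, and no test was possible. In the same pair of libraries 3 of 14 macrophage markers were at least 2-fold higher in the *Dnmt3a* KO library (summing to 32.7 against 17.9 FPKM), as were 4 of 28 other chemokine ligands and 4 of 20 other cytokines and growth factors, with 0 lower in each list. Of the 20 interferon response genes 0 were higher and 3 lower. The part of the markers in the differences of the members was not tested.

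**Figure D5:**
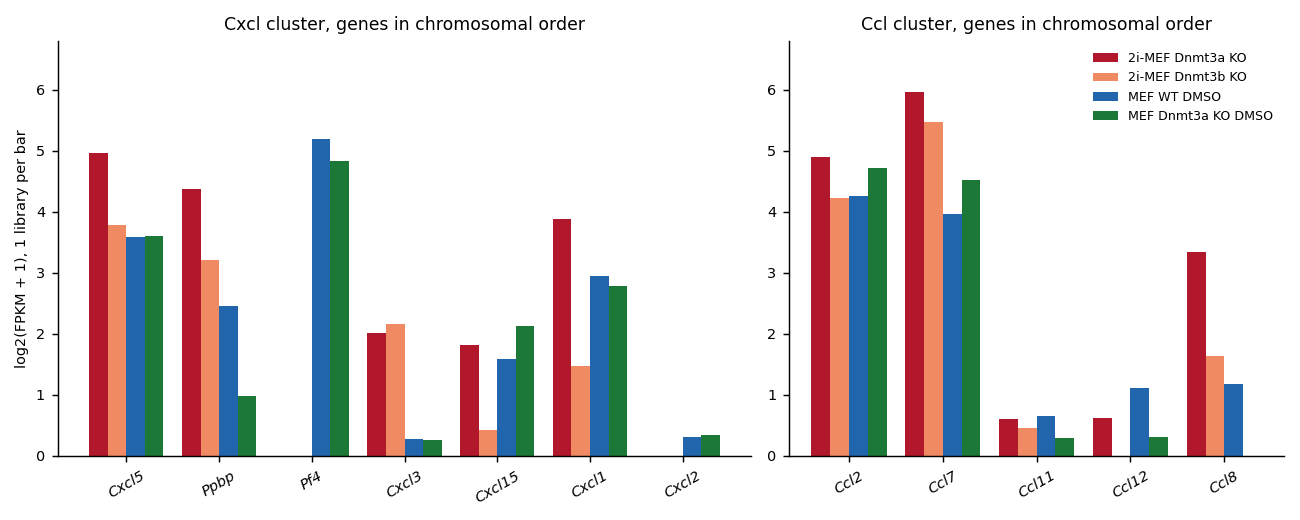
log2(FPKM + 1) of the protein-coding genes of the Cxcl cluster (left) and the Ccl cluster around *Ccl2* (right) in chromosomal order, with bars from 0 for *Dnmt3a* KO 2i-MEFs, *Dnmt3b* KO 2i-MEFs, WT MEFs with DMSO and MEFs labelled *Dnmt3a* KO with DMSO, 1 library each. *Cxcl5*, *Ppbp*, *Cxcl15*, *Cxcl1*, *Ccl2*, *Ccl7* and *Ccl8* are higher in *Dnmt3a* KO than in *Dnmt3b* KO 2i-MEFs, and *Pf4* is listed at 0 in both.

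*Cxcl5* and *Cxcl1* lie in a cluster of 146579 bases on chromosome 5 (mm10, 90759360 to 90905938), and *Ccl2* and *Ccl7* in one of 81229 bases on chromosome 11 (82035571 to 82116799). Their neighbours, looked at after the values of the members had been seen, are shown in the plot of the clusters. In the Cxcl cluster, the *Dnmt3a* KO and *Dnmt3b* KO 2i-MEFs had 19.7 and 8.28 FPKM of *Ppbp* and 2.52 and 0.340 FPKM of *Cxcl15*, but *Cxcl3* was level at 3.03 and 3.48 FPKM, and *Pf4* and *Cxcl2* were listed at 0 in both. In the Ccl cluster, *Ccl8* was at 9.15 and 2.11 FPKM, and *Ccl11* and *Ccl12* did not exceed 0.545 FPKM. Adjacent genes thus had different levels, as *Ppbp* and *Pf4* did in MEFs, where WT with DMSO had 4.48 and 35.5 FPKM.

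Between MEFs labelled *Dnmt3a* KO and WT, both with DMSO, 1 member was at least 2-fold higher, *Cxcl12*, and 1 lower, *Ccl5* (FPKM ratio 0.0638, 95% counting interval 0.00148 to 0.439, on 1 read against 11). Over all gene symbols 1.11% were higher and 0.528% lower, and over expressed genes 3.82% and 1.81%. *Cxcl12* was 2.61-fold higher (95% counting interval 2.56 to 2.67), *Csf1* 1.62-fold (1.55 to 1.69) and *Lif* 2.29-fold (1.98 to 2.66), which in FPKM + 1 is a log2 difference of 0.998, just under the 2-fold limit. *Il6* was 3.84-fold higher (1.38 to 16.1), from 4 to 23 reads. With GSK126 the comparison of the labels, made on separate libraries, gave 0 members at 2-fold in FPKM + 1, beside 0.745% higher and 0.764% lower of all symbols and 2.51% and 2.55% of expressed genes. There *Cxcl12* was 1.89-fold (1.85 to 1.93), *Lif* 1.66-fold (1.46 to 1.88), *Csf1* 1.23-fold (1.18 to 1.28) and *Il6* 2.23-fold (0.839 to 7.20) higher under the *Dnmt3a* KO label. The intervals of *Cxcl12*, *Lif* and *Csf1* thus lay above 1 with either treatment and that of *Il6* with DMSO, while *Cxcl10* had a ratio of 1.40 (0.696 to 2.97) with DMSO and 0.372 (0.210 to 0.640) with GSK126. Of the other chemokines, *Ccl2* (1.41, 1.18 to 1.67) and *Ccl7* (1.502, 1.24 to 1.83) had intervals above 1 with DMSO alone. *Cxcl1* (0.605, 0.437 to 0.839) and *Cxcl5* (0.654, 0.550 to 0.777) had intervals below 1 with GSK126 alone. Cell type markers differed between the labels too. From WT to the *Dnmt3a* KO label, macrophage markers summed to 2121 and 1664 FPKM with DMSO and 2186 and 1534 FPKM with GSK126. Fibroblast markers summed to 12755 and 9850 FPKM and to 9598 and 6649 FPKM, and epithelial markers to 6.88 and 17.7 FPKM and to 9.10 and 37.8 FPKM. Their part in these differences was not tested.

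In heart and in liver, 0 members differed 2-fold in FPKM + 1 between the libraries labelled *Dnmt3a* KO and WT. Of the expressed genes, 1.72% were higher and 1.4% lower in heart, and 1.21% and 2.01% in liver, and of all symbols 0.576% and 0.488% in heart and 0.351% and 0.581% in liver. In heart, *Ccl2* had an FPKM ratio of 0.447 (95% counting interval 0.210 to 0.888), from 33 to 12 reads. In liver, *Cxcl5* had a ratio of 0.218 (0.0402 to 0.782), from 14 to 3 reads. Both ratios pass 2-fold without the added 1 FPKM. Between the heart libraries, from WT to the *Dnmt3a* KO label, hepatocyte markers summed to 50.8 and 11.1 FPKM, with 5 of 7 at least 2-fold lower, and erythroid markers to 27072 and 18546 FPKM, with 1 of 8, and their part in these ratios was not tested. *Cxcl12* had ratios of 1.22 (95% counting interval 1.16 to 1.29) in heart and 0.958 (0.909 to 1.01) in liver, and *Csf1* of 1.09 (0.906 to 1.31) and 1.33 (1.16 to 1.54). Liver *Cxcl10* had a ratio of 0.816 (0.683 to 0.976), from 283 to 227 reads, in the same libraries in which 10 of the 20 interferon response genes were at least 2-fold higher and 0 lower under the *Dnmt3a* KO label. In liver, *Isg15* was at 6.32 and 73.7 FPKM and *Rsad2* at 5.46 and 44.5 FPKM for WT and the *Dnmt3a* KO label, both named after their values were seen. *Cxcl10* therefore did not share the direction of these genes in liver, and *Ccl5*, also interferon-induced, had 3 reads in each liver library (ratio 1.02, 0.136 to 7.60). In heart 5 of the 20 were 2-fold higher and 0 lower. Between the liver libraries, from WT to the *Dnmt3a* KO label, the summed level of macrophage markers was 512 and 333 FPKM, of fibroblast markers 536 and 293 FPKM, of hepatocyte markers 21218 and 14224 FPKM, of cardiomyocyte markers 114 and 22.4 FPKM and of erythroid markers 96713 and 130413 FPKM, and their part in these differences was not tested.

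The profiles of the members over the 10 libraries were compared with those of 15643 genes by Pearson's correlation of log2(FPKM + 1), as a description only, since all points share their libraries and a gene high in fibroblasts and low in tissues correlates with any other such gene. The most alike genes were *Gria3* and *Slc41a2* for *Ccl2* (r = 0.993 and 0.992), *Col8a1* and *Itgbl1* for *Ccl7* (0.997 and 0.996), *Tnmd* and *Egfl6* for *Cxcl1* (0.992 and 0.981), and *Wisp2* and *Sh3gl1* for *Cxcl5* (0.994 and 0.992). For *Cxcl12* they were *Acadsb* and *C1qtnf5* (0.991 and 0.990), for *Lif* *Hoxb6* and *Loxl4* (0.990 and 0.988), for *Csf1* *Hoxb9* and *Parp3* (0.998 and 0.996) and for *Il6* *Adamts6* and *Uba3* (0.983 and 0.976). For *Cxcl10*, high in liver, they were *Tfec* and *Sstr2* (0.982 and 0.979), and for *Ccl5* the small RNA genes *Snora68* and *Mir199a-2* (0.960 and 0.947). Between members the highest values were 0.983 for *Ccl7* with *Cxcl5*, 0.980 for *Ccl2* with *Csf1* and 0.9749 for *Lif* with *Csf1*.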

How the data were processed

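RNA was measured in 10 libraries, 1 per condition. Not analysed here were 16 methylation samples and the WT 2i-MEF RNA library. The authors prepared stranded mRNA libraries, aligned cutadapt-trimmed single reads to mm10 by tophat and bowtie2 with GENCODE M15 genes, dropped reads with several alignments or a MAPQ under 20, and computed the deposited FPKM values with cufflinks 2.2.1. Sources differ on the other tool versions.

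Of 52609 rows, 155 repeat a symbol, and rows of 1 symbol were summed. Start positions had 1 added and then equalled GENCODE M21 for all 10 members. Depth was recovered from FPKM steps of genes with 1 transcript (fragment length of 200 bases, 97.6% to 99.0% of values under 10 reads within 0.05 of whole reads), and reads of a member from the length of its principal transcript. Since depth is not stated, these reads are estimates. Poisson (levels) and Clopper-Pearson (ratios) intervals at 95% cover counting error only, and 3 reads are the floor for a 0.

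Differences are log2 ratios of FPKM + 1, which understate changes of low genes, counted at 2-fold, with no test where each group has 1 library. limma 3.58.1 (R 4.3.3, trend) was fitted to log2(FPKM + 1) of genes averaging 1 FPKM or more in the libraries fitted, with Benjamini-Hochberg adjustment over all genes tested and a threshold of 0.05. It was tested on simulated data. A gene averaging under 1 FPKM in either group entered a fit only through the other group, and its p-value then gives no support to a difference. The members and the gene lists (other chemokine ligands, other cytokines and growth factors, receptors, NF-kB, interferon and IL-6 family genes, and cell type markers) were chosen with earlier results of these data known. Beside the members, genes named are up to 3 with the largest rise and fall past 2-fold in each list (for GSK126 under both labels), the members' receptors, the label checks and the 2 genes most alike to each member, and any other is said to be chosen after its values were seen. Some genes that this rule names are not reported here. Alternatives were another pseudocount, centring on the median gene, a filter on low values, a 1.5-fold limit, 1 row per symbol, other MEF libraries, no genotype block and leaving out each library.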

Additional observations from a re-analysis of the deposited data

Results flagged for a closer look

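*Ccl2* had opposite directions between libraries labelled *Dnmt3a* KO and WT in different tissues, by more than 1.25-fold each way. The log2 difference in FPKM + 1 was 0.47 in MEFs with DMSO, -0.76 in heart and 0.48 in liver. In heart this rests on 12 reads against 33 reads. *Ccl5* had a log2 difference of -1.35 in MEFs with DMSO, from 11 reads to 1 read, and of 0.48 in heart, from 0 to 2 reads. These differences between tissues were not tested, since each group has 1 library, and heart and liver of a label share a number in the labels.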

How the results depend on the processing

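The number of members at least 2-fold apart depended on how low levels were treated. With a pseudocount of 0.1 in place of 1 FPKM it was 5 instead of 3 in 2i-MEFs against MEFs with DMSO (*Ccl5*, at 0 reads in 2i-MEFs, and *Cxcl10* lower), 3 instead of 2 between the 2i-MEF lines (*Cxcl10* lower, on 1 and 3 reads), 4 instead of 2 between MEFs labelled *Dnmt3a* KO and WT (*Il6* and *Lif* added), 2 instead of 0 in heart (*Ccl2* and *Ccl5*) and 1 instead of 0 in liver (*Cxcl5*). With a 1.5-fold limit it was 2 instead of 1 with GSK126 in WT MEFs (*Ccl5* added), 6 instead of 3 in 2i-MEFs against MEFs, 5 instead of 2 between the 2i-MEF lines, 5 instead of 2 between MEFs labelled *Dnmt3a* KO and WT and 1 instead of 0 in heart (*Ccl2*), and it stayed at 1 with GSK126 under the *Dnmt3a* KO label and at 0 in liver. Counting only genes averaging 1 FPKM or more left 1 instead of 2 between MEFs labelled *Dnmt3a* KO and WT (without *Ccl5*). Centring on the median gene or keeping 1 row per symbol left each of the 7 counts as it was. The count for the labels with GSK126 was not put through these alternatives. In 2i-MEFs against MEFs, leaving out 1 library gave counts from 2 to 4, and *Ccl7* was among them each time, whereas *Cxcl1* was lower (-1.39) without the *Dnmt3a* KO and higher (1.01) without the *Dnmt3b* KO 2i-MEFs. With limma, members called for GSK126 remained 0 under each of 4 alternatives, with lowest adjusted p from 0.482 to 0.961 and 0 to 7 genes called in all. For 2i-MEFs against MEFs they remained 0 in 7 of 8 alternatives and were 1, *Ccl7*, with all 4 MEF libraries. Leaving out 1 library gave 0 each time, with 0 to 2 genes called in all and a lone library assumed to vary like the others. In limma, 1 to 3 members had an unadjusted p under 0.05 in each of those fits of 2i-MEFs that called 0. For GSK126 the genotype label was the block that pairs the libraries, and without it the lowest adjusted p of the members was 0.961 instead of 0.549. The label was not paired by treatment in MEFs or by organ in embryos, and such fits were not run. Depth limits values of few reads, among them *Ccl5* and *Il6* in most libraries, *Cxcl10* in fibroblasts and heart (13 reads in WT MEFs with DMSO), *Cxcl1* in *Dnmt3b* KO 2i-MEFs (12 reads) and several members in heart and liver.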
